A study of Mus musculus with 6 samples.

Results

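H19, Igf2 and 8 other imprinted genes that act on fetal growth, Igf2r, Plagl1, Dlk1, Meg3, Peg3, Mest, Grb10 and Ndn, were followed in RNA-seq counts of embryonic nasal cartilage. All 10 were matched by Ensembl identifier among the 38924 genes counted, and all 10 were among the 13333 genes abundant enough to be tested. H19 was chosen by its counts in these libraries, which were seen to be lower in the mutant cartilage, so its difference between genotypes is given below as a description, with no test. The other 9 genes were listed with it as imprinted genes that act on growth. The tissue was the front part of the nasal septum, the cartilage plate that divides the nose, cut out with a laser from frozen sections of C57BL/6 mouse embryos at embryonic day 14.5. The Apert group held 3 embryos, each a separate mouse, of genotype Fgfr2+/S252W; EIIA-Cre, which carry 1 copy of a fibroblast growth factor receptor 2 with the S252W change found in human Apert syndrome. The WT group held 3 separate wild-type embryos, and the labels do not say whether these carried the Cre transgene. EIIa-Cre acts in the early embryo, so the mutant receptor is expected in tissues throughout the body and not in cartilage alone. The comparison asks how this receptor change alters the transcripts of the cartilage.

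An imprinted gene is transcribed mainly from the chromosome of 1 parent, and many imprinted genes set how large a fetus grows. H19 and Igf2 are neighbours that share enhancers: the insulator protein CTCF binds a control region between them on the maternal chromosome, where H19 is transcribed, while DNA methylation blocks that binding on the paternal chromosome, where Igf2 is transcribed. Igf2 encodes insulin-like growth factor 2, Igf2r encodes the receptor that clears it, and Plagl1 encodes a zinc finger transcription factor that in mouse can activate several imprinted genes, H19 and Igf2 among them. The deposited counts carry no allele information, so the parental origin of the transcripts was not analysed here.

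Several of these genes are also host transcripts of microRNAs. H19 (ENSMUSG00000000031; chr7:142575529-142578143 of mm10, minus strand) carries miR-675 within an exon, and this microRNA is thought to be a main product of H19 in the mouse placenta, where it restrains growth. Igf2 (ENSMUSG00000048583; chr7:142650766-142666816, minus strand) lies 72.62 kb away on the same strand and carries miR-483 in an intron. The mature sequences below, from RefSeq on GRCm38.p6, show which small RNAs the H19 and Igf2 transcripts contain, with the seed (bases 2 to 8, which pair with targets) in capitals.
miR-675-5p: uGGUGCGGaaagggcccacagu
miR-675-3p: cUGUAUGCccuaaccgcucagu
miR-483-5p: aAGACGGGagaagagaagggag
miR-483-3p: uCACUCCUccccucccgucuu
No seed was shared among these 4. The miR-675 arms lie at chr7:142577112-142577133 and chr7:142577078-142577099. The hairpin gene Mir675 had 0 counts in all 6 libraries. Its bases are also H19 exon, and a fragment over exons of more than 1 gene was assigned to neither, so neither these counts nor this library type measure the microRNA. Such shared bases made up 9.49% of H19 exon length, 22.9% of Mest (with its antisense neighbour Copg2), 8.29% of Meg3, 1.71% of Igf2 and 0.521% of Plagl1. The counts of these 5 genes are uncertain for that reason. These are shares of bases, and the share of fragments lost was not measured. The other 5 genes shared none.

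Library totals ran from 6760510 to 10527915 counts in Apert and from 8631181 to 10834744 counts in WT. The lowest count of any of the 10 genes was 276 (Dlk1 in Apert replicate 2). Counts from amplified RNA are not independent molecules, so amplification noise and differences between embryos cannot be told apart here. Levels are counts per 1000000 (CPM) on totals scaled by the trimmed mean of M values (TMM), unless given per kb of exon. Chondrocyte markers were high in both groups (summed 39567 to 42921 CPM in Apert and 38408 to 49471 CPM in WT), among them Col2a1 at a mean of 17510 CPM in Apert and 19695 CPM in WT. Of these 15 markers, 4 had positive and 11 negative log2 fold changes, with a median of -0.21. The edgeR fit called 0, and 4 had an unadjusted p under 0.05, against 11.4% of all tested genes. Among these 4, Sox9 (-0.67, edgeR adjusted p = 0.125) and Col9a2 (-0.43, edgeR adjusted p = 0.344) were lower in every Apert library. Acan was lower with the groups overlapping (-0.48, edgeR adjusted p = 0.322). Matn3 was higher in every Apert library (0.85, edgeR adjusted p = 0.197). DESeq2 and limma-voom each called 1 marker lower, against 0.345% and 0.113% of all tested genes called lower. Of 16 skeletal muscle markers 6 were at 0 in every library, Myod1, Myog, Myf5, Pax7, Myh8 and Ckm, and of 9 epithelial markers 3 were, Cdh1, Krt14 and Cldn3. Those 2 lists summed to 34.8 to 40.1 and 0.496 to 2.99 CPM in Apert, against 22.2 to 35.1 and 1.08 to 1.64 CPM in WT. The summed level of the fibrous mesenchyme markers was higher in every Apert library (4620 to 5294 CPM, against 3493 to 4076 CPM in WT). Of the 12 tested, the edgeR quasi-likelihood fit called 2 higher at an adjusted p under 0.05, Col3a1 and Ogn, against 0.398% of all tested genes. The other 10 were not called. DESeq2 called 4 higher and limma-voom 5, against 133 and 89 called higher among all 13333 tested genes. An unadjusted edgeR p under 0.05 was found for 8 of the 12, against 11.4% of all tested genes. The median log2 fold change was 0.56, with 10 positive and 2 negative, Col5a1 (-0.11) and Twist1 (-0.01). With a correction for GC content edgeR called 0 of the 12, and 4 higher and 1 lower among all tested genes. With that correction and a replicate block it called 5 higher, against 67 among all tested genes. All 12 log2 fold changes were positive in both GC fits. The summed level of the neuron and glia markers was lower in every Apert library (192 to 212 CPM, against 242 to 313 CPM in WT), with 0 of 6 tested markers called by the edgeR fit, DESeq2 or limma-voom and 1, Sox10, at an unadjusted p under 0.05, against 11.4% of all tested genes. The mitochondrial genome took 37.1% ± 3.06 of counts in Apert and 29.6% ± 0.756 in WT (SD, n = 3 each; two-sided exact permutation p = 0.1, the smallest this design allows). The part of these shifts in the results below was not tested. In tissue samples, fewer cells of a type and less RNA per cell cannot be told apart.

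Per kb of exon, Igf2 stood first in Apert cartilage and H19 first in WT cartilage, while the ranks of the other 8 genes were the same in both groups. By CPM not divided by exon length, Igf2 was above H19 in both groups. In Apert libraries Igf2 averaged 826 ± 108 and H19 803 ± 118 CPM per kb (SD, n = 3), and their ranges overlapped. In WT libraries H19 averaged 1378 ± 323 CPM per kb and Igf2 913 ± 143 CPM per kb (SD, n = 3), and their ranges were apart. Peg3, a zinc finger gene, came next at 538 ± 12.5 CPM per kb in Apert and 537 ± 23.5 in WT, ahead of Mest at 487 ± 61.5 in Apert and 473 ± 13.1 in WT. Plagl1 followed with 335 ± 49.8 CPM per kb in Apert and 248 ± 42.3 in WT, then Grb10 with 170 ± 25.4 in Apert and 183 ± 7.91 in WT. Igf2r (54.9 ± 10.6 in Apert and 58.8 ± 5.87 in WT) and Meg3 (54.8 ± 25.6 in Apert and 47.0 ± 15.4 in WT) could not be ordered, and Meg3 also overlapped Ndn (32.3 ± 7.0 in Apert and 29.6 ± 1.14 in WT). Dlk1 was lowest, at 8.74 ± 2.07 CPM per kb in Apert and 11.7 ± 4.31 in WT. Peg3 and Mest overlapped in Apert but not in WT. Together the 10 genes took 3.13% to 3.32% of nuclear-encoded counts in Apert and 3.13% to 3.61% in WT.

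**Figure D1:**
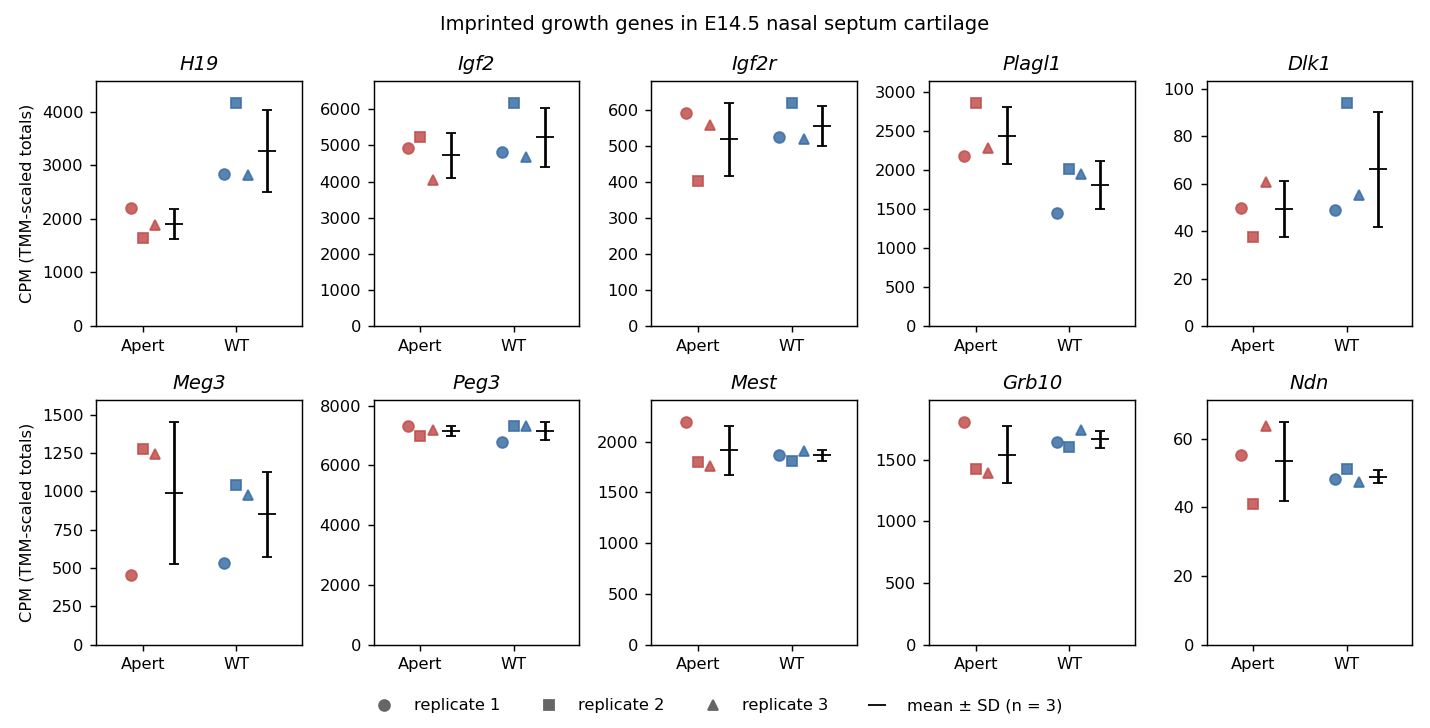
CPM of each of the 10 genes in Apert and WT libraries, 1 panel per gene, with a point for each of the 3 replicates and the mean ± SD beside them; the CPM axes start at 0 and differ between panels. The Apert points lie below all WT points for H19 and above them for Plagl1, and the groups overlap in the other 8 panels.

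H19 was lower in every Apert library than in any WT library. It had 2194, 1634 and 1889 CPM in Apert replicates 1 to 3, against 2835, 4154 and 2820 CPM in WT replicates 1 to 3. Among the WT libraries replicate 2 stood well above the others, and the groups were separated by the gap between 2194 and 2820 CPM. The log2 fold change was -0.78 ± 0.16 (standard error), which is 1.72-fold lower in Apert. Over all genes tested, the edgeR quasi-likelihood fit called 60 (0.45%) at an adjusted p under 0.05, 0.398% higher and 0.0525% lower. No call is given for H19, since its fall in these same counts put it on the list. With library totals alone in place of TMM the calls over all genes were 17 higher and 24 lower. The H19 fold change was -0.79 with the mitochondrial genes removed, and it ran from -0.93 to -0.55 over the 11 other ways of processing. Because the groups did not overlap, the negative sign was fixed in advance for fits that drop 1 library, and only the size could vary. In those fits the fold change ranged from -0.92 without Apert replicate 1 to -0.57 without WT replicate 2. Between these it was -0.69 without Apert replicate 2, -0.78 without Apert replicate 3, -0.87 without WT replicate 1 and -0.87 without WT replicate 3.

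Igf2, the paternally expressed growth factor gene, did not pass the test. Its level was 4919, 5223 and 4035 CPM in Apert replicates 1 to 3, against 4826, 6166 and 4683 CPM in WT replicates 1 to 3. The groups overlapped: 1 Apert library was the lowest of all 6, and the highest Apert library lay between the WT values. The log2 fold change was -0.14 ± 0.14 (standard error; edgeR adjusted p = 0.749), and 2 standard errors around it span -0.43 to 0.14.

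The ratio of H19 to Igf2 within a library does not depend on how libraries are scaled. Per kb of exon it was 1.08, 0.755 and 1.13 in Apert replicates 1 to 3, against 1.42, 1.63 and 1.45 in WT replicates 1 to 3. All 3 Apert ratios lay below all 3 WT ratios. Per kb, H19 exceeded Igf2 in every WT library but not in Apert replicate 2. This order depends on the exon lengths used, 2372 bases for H19 and 5723 bases for Igf2. In counts not divided by length, Igf2 exceeded H19 in all 6 libraries, with ratios of 0.313 to 0.468 in Apert and 0.587 to 0.674 in WT. On the log2 scale the ratio per kb averaged -0.04 ± 0.32 in Apert and 0.58 ± 0.11 in WT (SD, n = 3 each), a difference of -0.62. With 1 library left out it ranged from -0.44 without Apert replicate 2 to -0.73 without Apert replicate 3. Since it contains H19, this difference too is a description.

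The H19 and Igf2 transcripts are alike in base composition, at 55.8% GC each, above 84.8% and 84.9% of the tested genes with a GC value. When each library's dependence on GC content was taken out, the log2 fold change of H19 was -0.55, against -0.78 before, and that of Igf2 was 0.08. Because their GC contents are nearly equal, the correction moves both genes alike, so the difference between their fold changes, -0.63, cannot show whether GC content plays a part, which was not tested. With 1 library left out that difference ranged from -0.73 to -0.46.

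**Figure D2:**
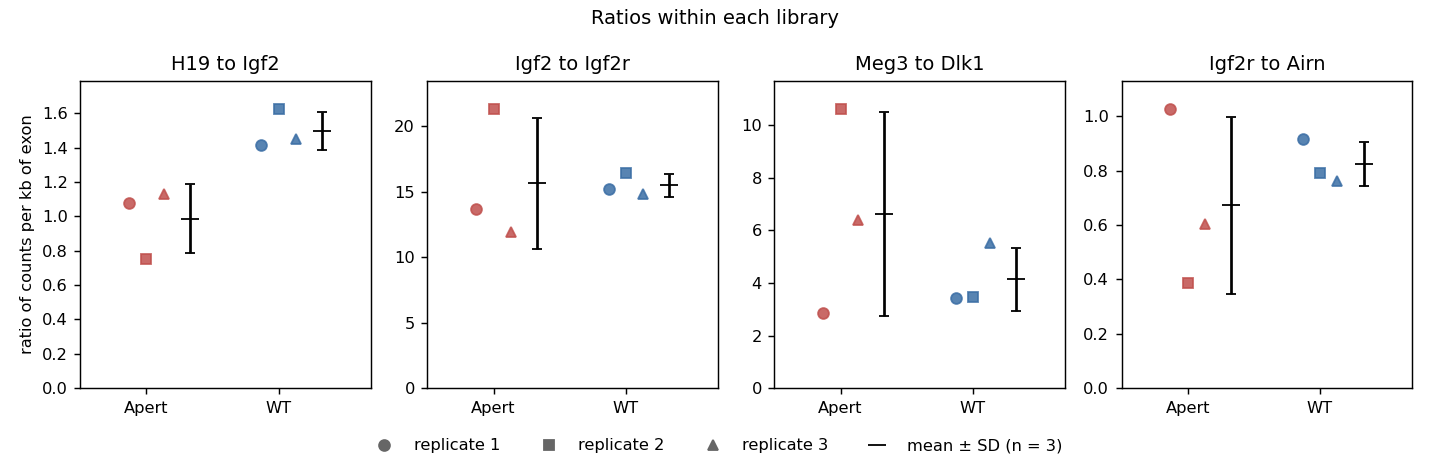
Ratios of counts per kb of exon between pairs of genes within each library, in Apert and WT, with a point per replicate and the mean ± SD (n = 3); the ratio axes start at 0. The 3 Apert H19 to Igf2 ratios, 0.755 to 1.13, lie below the 3 WT ratios, 1.42 to 1.63, and the groups overlap for Igf2 to Igf2r, Meg3 to Dlk1 and Igf2r to Airn.

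Of the 9 genes other than H19 the edgeR fit called 0 in either direction, as did DESeq2 and limma-voom, which called 1.34% and 0.78% of all tested genes. An unadjusted p under 0.05 was found for 1 of the 9, near the share over all tested genes, 11.4%. Among the 9, 5 had positive and 4 had negative log2 fold changes, and their median was 0.00, against 0.01 over all genes tested; with library totals alone Peg3, Mest and Ndn turned negative. In 1 of the 9, Plagl1, the groups did not overlap; over all tested genes this held for 16.6%, with Apert above WT in 8.92% and below in 7.7%.

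Plagl1 (ENSMUSG00000019817; chr10:13090691-13131694, plus strand) was the gene on the other side from H19. It had 2187, 2861 and 2289 CPM in Apert replicates 1 to 3, against 1453, 2016 and 1952 CPM in WT replicates 1 to 3. Every Apert library was higher than every WT library, with the closest values 2187 CPM in Apert and 2016 CPM in WT. The log2 fold change was 0.44 ± 0.15 (standard error), 1.35-fold, and it did not pass (edgeR adjusted p = 0.254, unadjusted p = 0.00940). With 1 library left out it ran from 0.30 without Apert replicate 2 to 0.52 without WT replicate 2 (edgeR adjusted p 0.121 to 0.632). It was 0.37 with the GC correction. Since the groups did not overlap, the sign with a library left out was fixed in advance.

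The genes that limit IGF2 and insulin signalling did not pass. Igf2r (ENSMUSG00000023830; chr17:12682406-12769664, minus strand), which carries IGF2 to lysosomes, had 592, 404 and 559 CPM in Apert replicates 1 to 3, against 524, 619 and 521 CPM in WT replicates 1 to 3. Its log2 fold change was -0.10 ± 0.15 (standard error; adjusted p = 0.860), and Apert replicate 2 was the lowest of the 6 libraries. The ratio of Igf2 to Igf2r per kb was 13.7, 21.3 and 11.9 in Apert replicates 1 to 3, against 15.2, 16.4 and 14.8 in WT replicates 1 to 3, so ligand and clearance receptor transcripts kept overlapping proportions with a wider spread in Apert. Grb10 (ENSMUSG00000020176; chr11:11930508-12038683, minus strand), an adaptor that dampens insulin and IGF receptor signalling, had 1810, 1429 and 1393 CPM in Apert, against 1649, 1605 and 1746 CPM in WT, in replicate order. The Apert values lay on both sides of the WT range, with a log2 fold change of -0.11 ± 0.13 (standard error, with an adjusted p = 0.809).

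Airn, the noncoding RNA that is transcribed from the paternal chromosome through Igf2r on the opposite strand and silences it there, averaged 322 ± 92.0 CPM in Apert and 258 ± 39.4 CPM in WT (SD, n = 3 each; adjusted p = 0.538). The ratio of Igf2r to Airn per kb was 1.03, 0.388 and 0.604 in Apert replicates 1 to 3, against 0.915, 0.793 and 0.764 in WT replicates 1 to 3. The groups overlapped, with the highest and the 2 lowest ratios all in Apert. Strand was not used in counting, so unspliced Airn over Igf2r exons cannot be told apart from Igf2r.

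The Dlk1 and Meg3 locus on chromosome 12 had the widest standard errors among the 10 genes. Dlk1 (ENSMUSG00000040856; chr12:109452823-109463336, plus strand), a transmembrane protein of the Notch ligand type that restrains differentiation, had 49.9, 37.6 and 60.9 CPM in Apert replicates 1 to 3, against 48.9, 94.0 and 55.3 CPM in WT replicates 1 to 3. WT replicate 2 stood apart, and the other 5 libraries overlapped. The log2 fold change was -0.42 ± 0.23 (standard error; adjusted p = 0.517), and -0.08 without WT replicate 2.

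Meg3 (ENSMUSG00000021268; chr12:109541001-109571726, plus strand), a noncoding RNA 77.67 kb from Dlk1 that is made from the maternal chromosome, had 457, 1274 and 1243 CPM in Apert replicates 1 to 3, against 532, 1044 and 976 CPM in WT replicates 1 to 3. In both genotypes replicate 1 held less than the other libraries, by 2.79-fold from lowest to highest in Apert and 1.96-fold in WT. The log2 fold change of 0.22 had a standard error of 0.28 (adjusted p = 0.821), and it ran from -0.03 without WT replicate 1 to 0.53 without Apert replicate 1. The ratio of Meg3 to Dlk1 per kb was 2.87, 10.6 and 6.38 in Apert replicates 1 to 3, against 3.41, 3.47 and 5.52 in WT replicates 1 to 3, so both the lowest and the highest ratio were in Apert. Rian, the next noncoding RNA along the same strand, showed the same low replicate 1, with 1069, 1543 and 1490 CPM in Apert replicates 1 to 3, against 885, 1302 and 1384 CPM in WT replicates 1 to 3 (log2 fold change 0.20, adjusted p = 0.710). Mirg, a microRNA host further along and named here after its values were seen, was at 152 ± 29.3 CPM in Apert and 142 ± 20.5 CPM in WT (SD, n = 3 each).

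The remaining paternally expressed genes, Peg3, Mest and Ndn, did not pass the test. Peg3 (ENSMUSG00000002265; chr7:6703892-6730421, minus strand), which encodes a zinc finger protein and whose loss makes mouse fetuses small, had 7323, 6991 and 7189 CPM in Apert replicates 1 to 3, against 6786, 7333 and 7322 CPM in WT replicates 1 to 3. It had the narrowest spread of the 10 genes in Apert, 1.05-fold from lowest to highest, and a log2 fold change of 0.00 ± 0.12 (standard error, with an adjusted p = 0.994). An interval of 2 standard errors runs from -0.23 to 0.24.

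Mest (ENSMUSG00000051855; chr6:30723547-30748455, plus strand), a hydrolase gene of growing mesoderm, had 2195, 1796 and 1757 CPM in Apert, against 1870, 1808 and 1910 CPM in WT, in replicate order. The Apert values surround the WT values, with a log2 fold change of 0.04 ± 0.13 (standard error, with an adjusted p = 0.940; 2 standard errors span -0.22 to 0.30). Ndn (ENSMUSG00000033585; chr7:62348277-62349928, plus strand), encoding necdin, a growth suppressor of the Prader-Willi region, had 55.4, 41.0 and 63.8 CPM in Apert, against 48.3, 51.1 and 47.5 CPM in WT, in replicate order. The spread was 1.56-fold in Apert and 1.08-fold in WT, and the log2 fold change was 0.12 ± 0.18 (standard error; adjusted p = 0.850; 2 standard errors span -0.24 to 0.49).

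Among WT libraries, replicate 2 was the highest for 8 of the 10 genes, the exceptions being Mest and Grb10, while it was the highest WT library for 35.2% of all tested genes. The values of H19 and Dlk1 without it are given above.

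**Figure D3:**
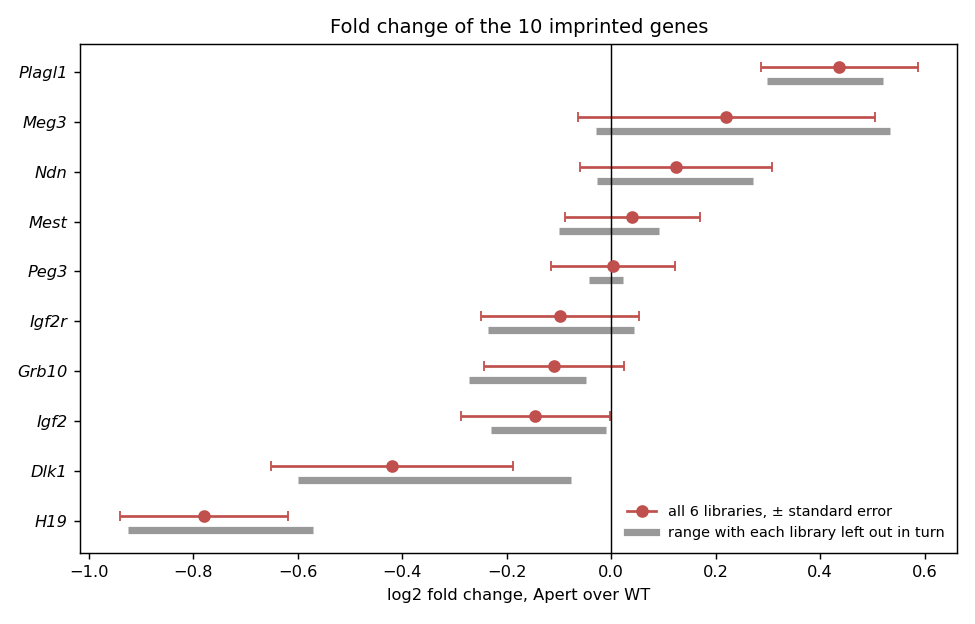
Log2 fold change of Apert over WT for the 10 genes, with 1 row per gene; red points with bars are the fit to all 6 libraries ± its standard error, and grey bars span the values with each library left out in turn. H19 at -0.78 and Plagl1 at 0.44 lie at the ends, and the grey bars of Meg3, Ndn, Mest, Peg3 and Igf2r cross 0.

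Other imprinted genes of the mouse showed no call either. Of 58 listed, 53 were matched and 40 were tested, the edgeR fit called 0 higher and 0 lower, 16 had positive and 24 negative log2 fold changes, and the median was -0.04. DESeq2 and limma-voom also called 0, and 2 of the 40 had an unadjusted p under 0.05, Copg2 and Klf14, against 11.4% of all tested genes. Klf14, a transcription factor gene named after its values were seen, was low, at 2.06 ± 0.372 CPM in Apert and 5.34 ± 1.87 CPM in WT (SD, n = 3 each; log2 fold change -1.36, adjusted p = 0.253). Copg2, a coat protein gene antisense to Mest, was at 68.9 ± 8.77 CPM in Apert and 52.4 ± 1.48 CPM in WT (log2 fold change 0.40, adjusted p = 0.364), with the groups apart. Gnas, the stimulatory G protein subunit gene, was at 34.3 ± 20.4 CPM in Apert and 26.7 ± 8.21 CPM in WT, and Blcap at 13.4 ± 1.21 CPM in Apert and 19 ± 4.11 CPM in WT. Commd1 was at 9.83 ± 1.98 CPM in Apert and 12.5 ± 0.405 CPM in WT (SD, n = 3 each). Bases shared with exons of other genes made up 22.0% of Gnas, 20.1% of Copg2 and 11.9% of Commd1. The levels of these genes are uncertain for that reason, by an amount not measured here. The most abundant were Peg10, a gene derived from a retrotransposon, at 1518 ± 207 CPM in Apert and 1797 ± 291 CPM in WT (adjusted p = 0.560), Rian as above, and Phactr2, which lies 76.02 kb from Plagl1, at 665 ± 33.3 CPM in Apert and 698 ± 64.0 CPM in WT. Cdkn1c, a cell cycle inhibitor 880.21 kb from H19 and named after its values were seen, was at 433 ± 57.4 CPM in Apert and 450 ± 28.3 CPM in WT (SD, n = 3 each; log2 fold change -0.06, adjusted p = 0.916, and 0.24 with the GC correction).

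In the IGF pathway around these genes, 12 of 21 listed genes were tested and the edgeR fit called 0, against 2 called lower by DESeq2 and 1 by limma-voom, which called 0.345% and 0.113% of all tested genes lower. An unadjusted p under 0.05 was found for 2 of the 12, against 11.4% of all tested genes. Of the 12, 6 were positive and 6 negative, and the median log2 fold change was -0.05. Igfbp5, a secreted protein that binds IGF1 and IGF2, came closest. It had 1952, 1373 and 890 CPM in Apert replicates 1 to 3, against 3388, 2340 and 2515 CPM in WT replicates 1 to 3. All Apert libraries lay below all WT libraries, with a log2 fold change of -0.97 ± 0.21 (standard error; 1.95-fold lower; edgeR adjusted p = 0.0518). It passed in 8 of 11 other ways of processing (adjusted p 4.08e-10 to 0.188) and in 1 of 6 fits with a library left out, that without Apert replicate 1 (adjusted p = 0.00203; range 0.00203 to 0.322). Irs1, the main docking protein of insulin and IGF1 receptors, had 168, 161 and 182 CPM in Apert replicates 1 to 3, against 223, 339 and 226 CPM in WT replicates 1 to 3. Its groups were also apart, with a log2 fold change of -0.62 ± 0.16 (standard error, with an adjusted p = 0.107). Irs1 passed in 3 of 11 other ways of processing and in 0 of 6 fits with a library left out. In those 6 fits its log2 fold change ran from -0.73 to -0.40 (edgeR adjusted p 0.0694 to 0.453). Irs1 shares 30.9% of its exon bases with Gm9747.

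Insr, the insulin receptor gene, was at 128 ± 2.53 CPM in Apert and 153 ± 9.19 CPM in WT (adjusted p = 0.499). Igf1 was at 16.7 ± 8.04 CPM in Apert and 11 ± 4.87 CPM in WT (adjusted p = 0.543), and Pappa2, a protease that cleaves IGF binding proteins, at 34.1 ± 11.4 CPM in Apert and 25.6 ± 6.58 CPM in WT (SD, n = 3 each; adjusted p = 0.550). The summed level of the list was lower in every Apert library (1470 to 2527 CPM, against 3100 to 4028 CPM in WT), and Igfbp5 held the largest part of it.

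Factors that maintain imprints or bind their control regions had 11 of 13 listed genes tested and 0 called by the edgeR fit, DESeq2 or limma-voom, with 8 positive and 3 negative log2 fold changes and a median of 0.20. An unadjusted p under 0.05 was found for 3 of the 11, Arid4b, Dnmt1 and Zfp57, against 11.4% of all tested genes. Dnmt1, the maintenance DNA methyltransferase gene, was at 148 ± 33.4 CPM in Apert and 108 ± 17.1 CPM in WT (adjusted p = 0.322). Zfp57, which protects methylated control regions, was at 77.0 ± 13.7 CPM in Apert and 60.1 ± 2.0 CPM in WT (adjusted p = 0.438), and Arid4b at 179 ± 22.5 CPM in Apert and 143 ± 8.75 CPM in WT (adjusted p = 0.403). Dnmt3a, a de novo methyltransferase gene, was at 214 ± 45.2 CPM in Apert and 262 ± 18.4 CPM in WT (adjusted p = 0.499), and Smchd1 at 200.01 ± 7.25 CPM in Apert and 169 ± 9.73 CPM in WT (SD, n = 3 each; adjusted p = 0.511).

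**Figure D4:**
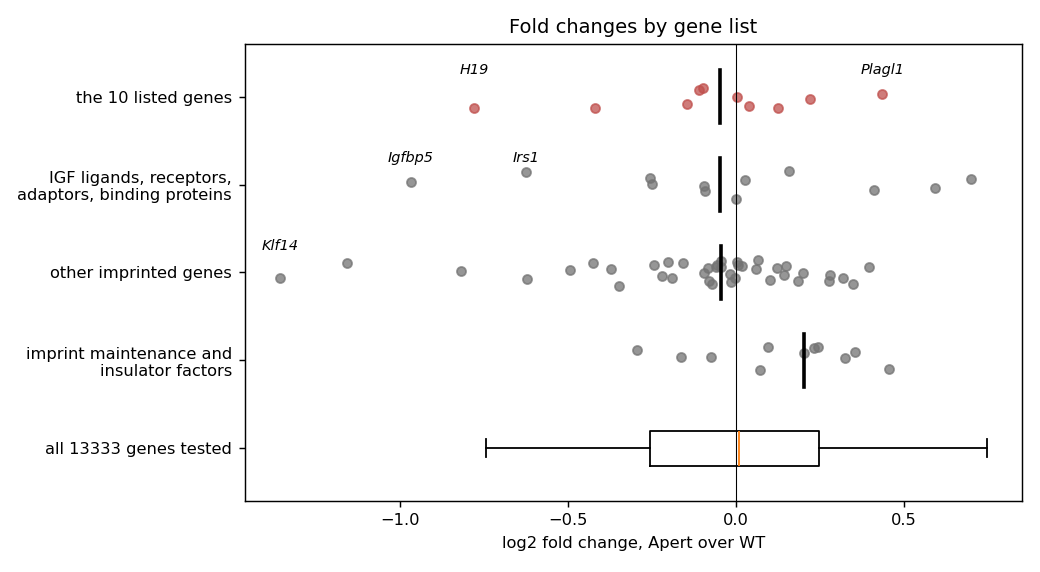
Log2 fold changes of Apert over WT for the 10 genes, the 12 tested IGF pathway genes, the 40 other imprinted genes and the 11 imprint maintenance factors, with a point per gene and a black bar at each median; the box shows the quartiles of all 13333 tested genes with whiskers at the 5th and 95th percentiles. H19 at -0.78 and Igfbp5 at -0.97 lie toward the low end, Klf14 is the lowest point at -1.36, and the medians of the first 3 lists lie near that of all genes.

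The genes whose profile over the 6 libraries was most like that of H19 were Cstf1, Sdc3, Tmem98, Eif3g and Apba1. Likeness was the mean absolute difference between log2 CPM profiles, each centred on its own mean. It was 0.07, 0.07, 0.09, 0.09 and 0.09 for these 5 genes in that order, against a median of 0.42 over the 7148 genes compared. Sdc3, which encodes a heparan sulfate proteoglycan, had 47.4, 37.0 and 38.9 CPM in Apert replicates 1 to 3, against 57.4, 81.0 and 54.0 CPM in WT replicates 1 to 3. Like H19 it was lowest in Apert replicate 2 and highest in WT replicate 2, a likeness that the choice itself fixes. None of the 5 lies on chromosome 7.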

How the data were processed

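RNA of laser-captured cartilage from 3 Apert and 3 WT embryos was measured, 1 library each. Per the labels' protocols, 15 ng of RNA was amplified with NuGEN Ovation v2 before Nextera XT tagging. Per the file headers, the authors deposited whole-number fragment counts per gene from featureCounts 1.4.4, over exons, without strand, on Ensembl release 75 models. STAR 2.5.2b, cutadapt and the mm10 build appear in the submitters' processing notes. Amplification can distort levels by GC content, and without molecular identifiers counts are not independent molecules. Genes were named from GENCODE M21 (37607 matched; the 1317 others held 0.168% to 0.205% of counts).

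Counts were fitted in R 4.3.3 with edgeR 4.0.16 (filterByExpr, TMM, quasi-likelihood F test, Benjamini-Hochberg over 13333 genes, threshold 0.05). The standard error is the log2 fold change divided by the square root of F. Alternatives were other scalings and filters, removal of mitochondrial genes, DESeq2 1.42.0, limma 3.58.1 (voom), a replicate block, a GC offset (mgcv 1.9.3) and each library left out. Scripts were tested on simulated data. Replicates differed beyond counting noise (chi-square per degree of freedom 11.6 to 24.0).

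The genes and lists were chosen with earlier results of these data known. List genes were named by largest change (mean CPM of at least 10) and highest level, except Cdkn1c, Mirg and Klf14.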

Additional observations from a re-analysis of the deposited data

How the results depend on the processing

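None of the 9 genes other than H19 was called under any of the 11 other ways of processing or with any 1 library left out. The count of all genes called higher and lower was 53 and 7, and it was 17 and 24 with library totals alone, 154 and 93 with no filter on low counts, 133 and 46 with DESeq2, 89 and 15 with limma-voom, 128 and 44 with the replicate block, 4 and 1 with the GC offset and 67 and 11 with GC offset and block. With 1 library left out it ran from 0 to 119 higher and 0 to 110 lower. With library totals alone the median of all genes moved to -0.14. Signs of log2 fold changes changed as follows. Igf2 was 0.077 with the GC offset and 0.071 with GC offset and block. Peg3 was -0.0057 with RLE scaling, -0.15 with library totals alone, -0.023 with upper quartile scaling, -0.022 with no filter, -0.0039 with mitochondrial genes removed, -0.0056 with DESeq2, -0.049 with the GC offset and -0.049 with GC offset and block. Mest was -0.11 with library totals alone, -0.0040 with limma-voom and -0.0051 with GC offset and block, and Ndn was -0.036 with library totals alone and -0.013 with GC offset and block. Rian was -0.089 and -0.076 with the GC offset and with GC offset and block, Cdkn1c 0.24 and 0.24, and Mirg -0.057 with library totals alone. With 1 library left out Igf2r ran from -0.24 to 0.044, Meg3 from -0.028 to 0.53, Peg3 from -0.043 to 0.023, Mest from -0.10 to 0.091, Ndn from -0.027 to 0.27, Gnas from -0.066 to 0.74, Phactr2 from -0.13 to 0.00, Cdkn1c from -0.14 to 0.040 and Mirg from -0.062 to 0.22. The causes were not tested.

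The median of the other imprinted genes was -0.20 with library totals alone, and that of the maintenance factors 0.037. For the IGF list the median was -0.20 with library totals alone, -0.15 with limma-voom, and -0.28 to 0.10 with 1 library left out; it had 2 genes called lower with library totals alone, no filter and DESeq2 (Igfbp5 and Irs1), 1 with upper quartile scaling, mitochondrial genes removed, limma-voom, the replicate block and GC offset with block (Igfbp5), and 0 to 1 with 1 library left out. The H19 to Igf2 difference ran from -0.73 to -0.44 and the mitochondrial difference from 5.80 to 8.83 percentage points with 1 library left out. Equal replicate numbers gave correlations of deviations across genes of 0.19, 0.02 and 0.09, and 2 of 3 Apert libraries correlated best with the WT library of their number. These values do not show whether libraries of equal number were paired. The labels do not say that equal numbers mark shared litters, so the samples were not treated as paired. With the replicate block H19 was at -0.76, Plagl1 at 0.44 and Igfbp5 at -1.02. Groups of 3 libraries limit which changes can pass.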
